A study of Glycine max with 12 samples.

Results

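The clones described here were lowered at least 1.5-fold under each of 3 treatments of soybean leaves. They were chosen by their measured ratios: in the authors' table of log2 ratios of treated over control, the mean over the 4 hybridizations of a treatment had to be -0.585 or less under tunicamycin (TUN), under L-azetidine-2-carboxylic acid (AZC) and under polyethylene glycol (PEG), with at least 3 values present in each. Of 5760 spots on the array, 5332 had enough values in all 3 treatments, and 95 met the limit. The single limits were met by 160 spots under TUN, 185 under AZC and 225 under PEG. Because these ratios selected the members, their size and direction are given below as a description without a test. In leaf RNA, fewer cells of a type and less RNA per cell cannot be told apart.

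TUN blocks the N-glycosylation of new proteins in the endoplasmic reticulum, and AZC is an analog of proline that is built into proteins and disturbs their folding. Both cause unfolded proteins to build up in that compartment, to which cells respond with the unfolded protein response. PEG of high molecular weight does not enter cells and withdraws water from the tissue, which gives an osmotic stress. Under either kind of stress plants are known to lower many transcripts of growth and photosynthesis.

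Leaves came from three-week-old plants of cultivar Dare, whose aerial parts had been excised below the cotyledons and placed in solution. The TUN solution held 10 μg/ml and leaves were taken after 24 h, with DMSO as the control, whereas AZC (50 mM) and PEG (10%, w/v) were left for 16 h and set against water. Each treatment had 2 biological replicates, and each replicate was hybridized in both dye orientations to cDNA clones, 12 hybridizations in all. The labels do not say how many plants made up a replicate or whether AZC and PEG shared their water plants, and all groups carry the excision and the uptake through the cut stem. TUN and AZC also differ in time and in solvent. The clones were drawn from developing seed, whereas the RNA was from leaf. In control RNA, all 4 named photosynthesis spots and all 19 named seed protein spots lay above background on at least 10 of 12 hybridizations. Their median percentiles of brightness within the array were 79.3 and 37.0. Apart from a PEG hybridization described below, at least 96.9% of all spots lay above background in either dye. The counts above background therefore do not set the named spots apart from the rest of the array.

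2 facts on single hybridizations bear on the values below. In PEG replicate 2, the array whose treated RNA carried Cy5 was read with a different spot-finding method from the other 11, and only 44.7% of its spots lay above background in Cy5. There 52 of 95 members had treated RNA above background, against 92 to 95 members on each of the other 11 hybridizations. Without that hybridization the rule gave 96 clones, 94 of them among the 95. The 2 scanner files of PEG replicate 1, turned by their labelled dyes, had r of -0.50 and -0.48 with their own columns in the authors' table and of -0.98 with each other's, where the other 10 files had 0.95 to 0.98 with their own. They were used exchanged.

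The platform table names 253 spots and pairs 11 of the 95 members with a gene symbol. The other 84 are given here only by their spot number. For clones lowered by all its treatments the paper gives names from sequence similarity, and reports that a large fraction are related to photosynthesis. Its clones were not paired with the 84 spots here, so what these spots encode is not stated. Among the named members was LOC547819 (spot 2556), a light-harvesting chlorophyll a/b-binding protein of photosystem II, with mean log2 ratios of -3.36 under TUN, -4.96 under AZC and -4.85 under PEG. 4 clones of LOC100037476, a granule-bound starch synthase, the enzyme that makes amylose, were members. Spot 2411 had means of -2.70 under TUN, -4.14 under AZC and -2.85 under PEG. Spot 5219 had means of -2.40, -3.08 and -2.28 in the same order of treatments. Spot 1311 (-1.15, -1.11 and -0.74) and spot 1746 (-0.59, -0.83 and -1.12) fell less, so that clones of 1 gene differed widely in size.

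In nitrogen and inositol metabolism, GS-2 (spot 131), a glutamine synthetase, had means of -1.12 under TUN, -1.13 under AZC and -1.19 under PEG, and MIPS (spot 409), a myo-inositol-phosphate synthase, had -0.77, -1.20 and -1.20. FAD3A (spot 2161), a desaturase that makes linolenic acid, had -0.78, -1.82 and -0.76. A second clone of GS-2 (spot 2071) was not a member, with -0.31, 0.01 and -0.33, and a second clone of FAD3A (spot 150) had -0.08 under TUN and -0.21 under AZC with too few values under PEG. CYP93E1 (spot 4164), a cytochrome P450 of triterpene saponin synthesis, had -1.90, -1.57 and -0.89. The other named members were LOC547931 (spot 534), a beta-amylase, with -1.16, -0.62 and -0.64, and HDL56 (spot 2817), a homeodomain-leucine zipper protein, with -1.18, -1.85 and -1.58. LOC732655, the A subunit of the chloroplast glyceraldehyde-3-phosphate dehydrogenase of carbon fixation, was not a member: spot 1217 had -4.22 under AZC and -1.95 under PEG with too few values under TUN, and spot 5555 had -0.27, 0.00 and -1.53. PSAD (spot 4605), the remaining named photosynthesis spot, was not a member either, with 0.08 under TUN, 0.25 under AZC and 0.37 under PEG. By list, members were counted among named spots with enough values in all 3 treatments. As 84 of the 95 members have no gene symbol, these counts do not give the make-up of the set. The paper reports many more photosynthesis clones among those lowered by all its treatments. They were 7 of 21 of starch synthase and of nitrogen, lipid and inositol metabolism, 1 of 3 of photosynthesis and 0 of 18 of seed proteins. Of all such spots 1.78% (95 of 5332) were members. The 7 include 4 clones of 1 gene.

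Over the 95 members the median of the treatment means was -1.40 under TUN, -1.73 under AZC and -1.62 under PEG, which is 2.64-fold, 3.32-fold and 3.07-fold lower, while the medians over all spots were -0.01, 0.01 and 0.04. The means ran from -0.59 to -3.39 under TUN, from -0.62 to -5.87 under AZC and from -0.59 to -4.85 under PEG. At least 4-fold lower were 23 members under TUN, 38 under AZC and 34 under PEG. The range was widest under AZC, with a lowest mean of -5.87 in spot 2487. That mean includes a value whose treated RNA was not above background, and without it the mean of the other 3 hybridizations was -5.61, or 49.0-fold lower, against a deepest fall of 10.5-fold under TUN and 28.8-fold under PEG.

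**Figure D1:**
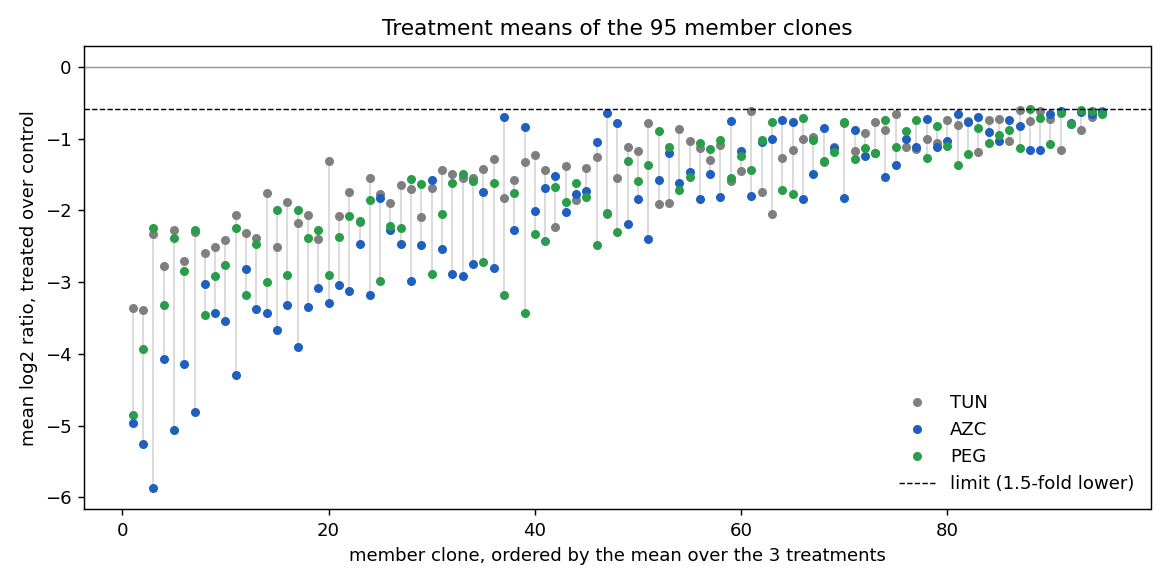
Mean log2 ratio of treated over control (y axis) of the 95 members, ordered along the x axis by their mean over the 3 treatments, with 1 point per treatment, a grey line joining the points of a clone and a dashed line at the limit of -0.585. The treatments lie close together at the right, and AZC reaches -5.87 at the left.

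The fall was deepest under AZC for 50 members (52.6%), under PEG for 28 (29.5%) and under TUN for 17 (17.9%). The most frequent full order was AZC, PEG, TUN from deepest to shallowest, with 33 members, followed by AZC, TUN, PEG with 17, PEG, AZC, TUN with 16 and PEG, TUN, AZC with 12. The orders that start with TUN held 9 members with AZC second and 8 with PEG second. For 6 members the 3 means lay within 0.25 of one another. With the 2 replicates taken separately the leading treatment changed: PEG led in 51.6% and AZC in 40.0% of members when only replicate 2 of each treatment was used, and AZC led in 64.2% and PEG in 18.9% when only replicate 1 was used.

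Whether the treatments differed in the size of the fall was tested with limma on ratios recomputed from the scanner intensities. The rule sets a limit on each treatment and none directly on their differences. It did choose members for large ratios on the same hybridizations, and spots with small ratios leave less room for a difference. The share of all spots called, given beside each count, is therefore not a baseline free of the rule. All spots were fitted together and p-values were adjusted over all of them by the Benjamini-Hochberg method. A clone entered a comparison only with unmarked values in both orientations of all 4 replicates.

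Between AZC and TUN, 20 of 83 members tested were called, all 20 lower under AZC. Of all 4372 spots, 2.08% were called, 1.46% lower and 0.618% higher under AZC. The differences of the called members ran from -0.87 to -3.25 on the log2 scale, and the median over tested members was -0.66 against 0.00 over all spots. No member was called higher under AZC by limma, with 2 at an unadjusted p under 0.05 (spots 2482 and 5475, given below) against 39 in the lower direction, and 1 was called higher in limma on the authors' ratios (spot 5475). The count fell to 4 with plain subtraction of the background, to 3 without AZC replicate 1 and to 4 without AZC replicate 2, and rose to 42 without TUN replicate 2. As the fit shares its spread over all treatments, it was also 0 with the PEG replicate 1 files as listed and 5 without the PEG array read by the other method.

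Between PEG and AZC, both of 16 h, 27 of 84 members tested were called, 19 less lowered under PEG and 8 more lowered. Of all 3976 spots, 5.96% were called, 2.99% higher and 2.97% lower under PEG. The differences ran from 1.13 to 4.0 for the 19 and from -0.85 to -2.82 for the 8, and the median over tested members was 0.41 against 0.00 over all spots. The count was 7 without AZC replicate 1, 11 without AZC replicate 2, 14 without PEG replicate 2, 9 without the PEG array read by the other method and 0 with the PEG replicate 1 files as listed.

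Between PEG and TUN, 9 of 75 members tested were called, all 9 lower under PEG, with differences from -0.73 to -2.31. Of all 3816 spots, 5.61% were called, 3.59% lower and 2.02% higher under PEG. The median over tested members was -0.33 against 0.01 over all spots. No member was called higher under PEG by limma, with 1 at an unadjusted p under 0.05 (spot 5729) against 21 lower. The count was 30 without TUN replicate 2, 5 without PEG replicate 1, 1 without PEG replicate 2 and 0 with the PEG replicate 1 files as listed.

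**Figure D2:**
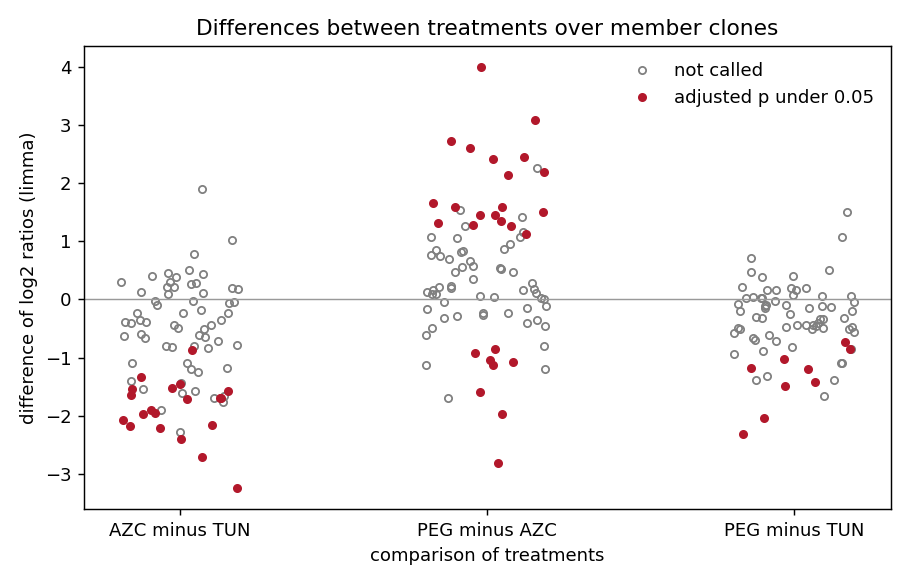
Difference of log2 ratios between treatments (y axis) in the limma fit, for each member tested in the 3 comparisons on the x axis, with filled points for an adjusted p under 0.05. The called members lie below 0 in AZC minus TUN (20) and PEG minus TUN (9) and on both sides in PEG minus AZC (19 above, 8 below).

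The rule used the contrasts of the single treatments on the same hybridizations, so the counts in the same fit were fixed by the choice of members and nothing is read from them. Under TUN 77 of 84 members in the fit were below the threshold and lower, beside 2.75% of all spots. Under AZC the count was 88 of 94, beside 5.12%. Under PEG it was 80 of 85, beside 7.02%, and 52 without PEG replicate 2.

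6 members had the lowest mean over the 3 treatments: LOC547819 and spot 2411 (above), and spots 1663, 2487, 2690 and 5547. In spot 1663 the AZC values were -5.39 and -4.96 in replicate 1 and -5.38 and -5.30 in replicate 2 (treated RNA in Cy5, then in Cy3). Its PEG values in that order were -3.77, -3.40, -3.71 and -4.82, and its TUN values were -3.04, -2.43, -4.45 and -3.65. All AZC values of this clone lay below all its PEG and TUN values, and the 2 other treatments overlapped. In the fit AZC was lower than TUN by 2.40 ± 0.47 (SE, adjusted p = 0.0377, limma), whereas PEG minus AZC was 1.54 ± 0.47 (adjusted p = 0.112). The treated RNA was not above background on AZC replicate 2 with it in Cy5 (-5.38), and without AZC replicate 2 the difference from TUN was not called (-2.21 ± 0.64, adjusted p = 0.310, limma).

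Spots 2487, 5547 and 1580 had the largest differences of AZC from PEG and from TUN in the direction of AZC. In spot 2487 the AZC values were -5.30, -5.28, -6.64 and -6.27. On the third of these hybridizations the treated RNA was not above background, and -6.64 is a ratio of 0.01 and the lowest value of the authors' table, so it is only a bound. Its PEG values were -1.85, -2.16, -2.02 and -2.94, and its 3 TUN values were -1.67, -1.34 and -3.97. Every AZC value was below every other value of the clone, and PEG minus AZC was 4.0 ± 0.40 (SE, adjusted p = 7.6e-04, limma), while TUN could not be tested because a value was marked. Without AZC replicate 2, which holds that value, PEG minus AZC was 3.24 ± 0.20 (adjusted p = 6.8e-04, limma).

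In spot 5547 the AZC values were -4.91, -4.99, -4.98 and -5.35, the PEG values -2.06, -2.68, -1.93 and -2.89, and the TUN values -1.66, -1.11, -3.78 and -2.54. AZC again lay apart, by -3.25 ± 0.48 from TUN (SE, adjusted p = 0.00773, limma), and PEG minus AZC was 3.09 ± 0.48 (adjusted p = 0.00428). Spot 1580, the brightest member in control RNA, had AZC values of -4.44, -4.58, -5.23 and -5.01, PEG values of -1.59, -2.87, -1.73 and -2.89, and TUN values of -1.56, -1.27, -3.15 and -3.24. AZC minus TUN was -2.71 ± 0.48 (adjusted p = 0.0211, limma) and PEG minus AZC 2.73 ± 0.48 (adjusted p = 0.00858). On the hybridization of the PEG value of -1.59 its control signal was near the top of the scanner scale (given below). Whether that made the PEG ratio shallower was not tested. In spot 2690 the means were -2.77 under TUN, -4.07 under AZC and -3.31 under PEG, and none of the 3 differences was called.

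The opposite order, deepest under PEG and shallowest under AZC, was largest in spots 4268, 5434 and 5475. In spot 5434 the PEG values were -3.05, -3.04, -2.85 and -3.80, the AZC values -0.71, -0.91, -0.51 and -0.64, and the 3 TUN values -2.20, -1.94 and -1.33. The 3 treatments did not overlap in this clone, although the PEG value of -2.85 is from a hybridization on which its treated RNA was not above background. PEG minus AZC was -2.82 ± 0.43 (SE, adjusted p = 0.00428, limma) and PEG minus TUN -2.31 ± 0.43 (adjusted p = 0.0135), while AZC minus TUN, 0.50 ± 0.43, was not called. The fit also used the scanner intensities of the TUN hybridization that has no value in the authors' table.

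In spot 5475 the PEG values were -1.91, -2.33 and -2.64 with 1 missing, the AZC values -1.05, -0.61, -0.76 and -0.71, and the TUN values -1.68, -1.45, -1.94 and -1.10. PEG minus AZC was -1.96 ± 0.23 (SE, adjusted p = 0.00112, limma) and PEG minus TUN -1.19 ± 0.23 (adjusted p = 0.0161). The fit also used the scanner intensities of the missing hybridization, PEG replicate 2 with treated RNA in Cy5. There the treated RNA of this clone was not above background, and its PEG coefficient in the fit was -3.13 ± 0.16, below all 3 PEG values above. In spot 4268 the authors' means were -3.42 under PEG and -0.84 under AZC. Its PEG values in the authors' table were -2.98, -3.36 and -3.93, with none for replicate 2 with treated RNA in Cy5. The fit from the scanner intensities included that hybridization. There the PEG coefficient was only -2.02 ± 0.54, and PEG minus AZC (-1.12 ± 0.76) was not called. The control RNA of this clone was above background on 3 of 4 PEG hybridizations.

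TUN fell furthest below AZC in spots 2482, 5434 and 5729. In spot 2482 the TUN values were -3.07, -2.40, -1.59 and -1.14 and the AZC values -1.20, -0.51, -0.72 and -0.12. The treatments overlapped at their edges, and AZC minus TUN was 1.89 ± 0.69 (SE, adjusted p = 0.334, limma). Spot 5729 had TUN values of -2.87, -2.21, -1.83 and -1.27 and AZC values of -1.66, -1.22, -0.55 and -0.56, with a difference of 1.02 ± 0.52 (adjusted p = 0.556, limma). Neither clone was called.

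Replicate agreement differed between treatments. Of 1140 possible values, 1108 were present and 5 were above 0. These 5 were in 4 clones named after their values were seen: spots 773, 2645 (with 2 such values), 3526 and 5729, 4 of the values under TUN and 1 under PEG. The PEG value (spot 5729, 0.41) was from replicate 2 with treated RNA in Cy5, where its treated RNA was not above background. In 66 members the means of all 6 biological replicates were at or below the limit. Both replicates met it in 76 members under TUN, in 83 under AZC and in 87 under PEG.

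**Figure D3:**
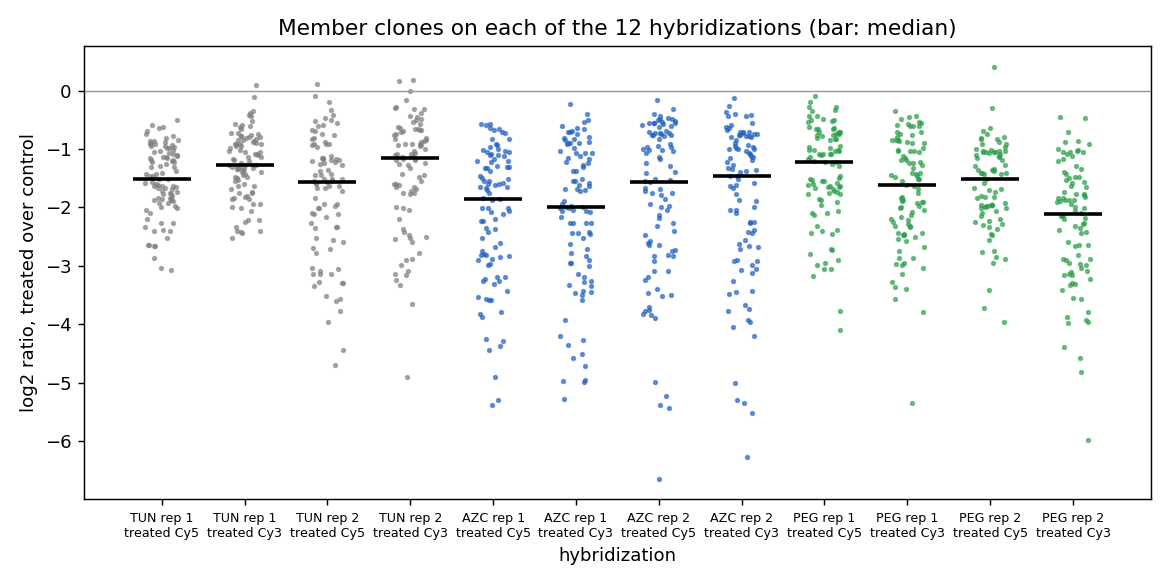
Log2 ratio of treated over control (y axis) of the members on each of the 12 hybridizations (x axis), 1 point per clone and a bar at the median. Of the 1108 values 5 lie above 0, and the range is narrowest in TUN replicate 1.

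Across the 95 members, Pearson's r of replicate 1 against replicate 2 was 0.34 under TUN, 0.93 under AZC and 0.94 under PEG (Spearman's rho 0.36, 0.90 and 0.92). These are correlations across clones of the same hybridizations, which are not independent replicates, so no p is given. On ratios recomputed from the scanner intensities r was 0.28, 0.91 and 0.78. The median absolute difference between replicates was 0.69 under TUN, 0.38 under AZC and 0.38 under PEG for members, and 0.17, 0.13 and 0.18 for all spots. It was over 1 in 29 members under TUN, in 5 under AZC (spots 1931, 2487 and 4601, LOC547819 and CYP93E1) and in 3 under PEG (spots 1582, 2482 and 5139), which are listed here after their values were seen.

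A shift of the whole set was also seen under AZC and PEG. Replicate 1 was the lower in 71 members under AZC, with medians of -1.85 and -1.51 in the 2 replicates, and replicate 2 was the lower in 87 members under PEG, with medians of -1.50 and -1.85. Under TUN the medians were close (-1.37 in both), and replicate 2 was lower in 54 members and replicate 1 in 41. The dye orientation moved the set as well: under PEG, 76 members were lower with the treated RNA in Cy3, with medians of -1.84 in that orientation and -1.34 in the other. Under TUN, 14 were lower with it in Cy3, with medians of -1.23 and -1.54. Under AZC, 50 were lower with it in Cy3, and the medians were -1.71 and -1.70. Each orientation of a replicate was a single hybridization, so dye and hybridization cannot be told apart within a replicate.

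**Figure D4:**
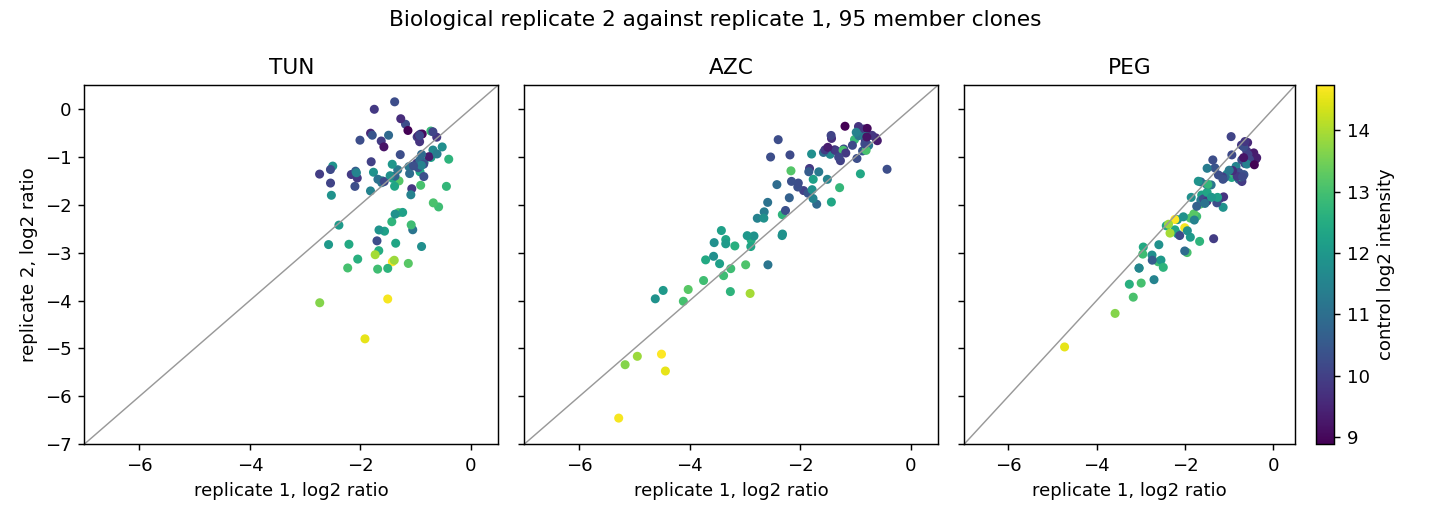
Mean log2 ratio of biological replicate 2 (y axis) against replicate 1 (x axis) for the 95 members under TUN, AZC and PEG, coloured by the mean log2 intensity of the control channel, with the line of equality in grey. Under AZC and PEG the points follow the line, with r of 0.93 and 0.94, whereas under TUN r was 0.34 and the bright clones lie below the line.

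The largest mean difference between replicates was in LOC547819 (1.39), spot 2487 (1.37) and spot 4302 (1.06), and in each it was largest under TUN. The replicate means of LOC547819 under TUN were -1.92 and -4.80, against -4.44 and -5.47 under AZC and -4.73 and -4.97 under PEG. In spot 4302 the TUN values were -1.74 and -1.27 in replicate 1 and -3.34 and -3.32 in replicate 2, so that the 2 replicates did not overlap while the 2 orientations of each were close.

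The smallest difference was in spots 2912 (0.07), 1470 (0.12) and 5605 (0.14). In spot 5605 the TUN values were -1.62, -1.30, -1.11 and -1.68, the AZC values -1.85, -1.72, -1.75 and -1.63, and the PEG values -2.31, -2.87, -2.25 and -3.42. All PEG values lay below all AZC and TUN values, and PEG minus TUN was -1.48 ± 0.16 (SE, adjusted p = 8.7e-04, limma). In spot 1470 PEG was lower than AZC by 1.04 ± 0.18 (adjusted p = 0.00827, limma). Spot 2912 had nearly equal means of -0.61, -0.63 and -0.66 under TUN, AZC and PEG.

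The abundance of the members in control RNA was read from the brightness of the control channel, after background correction and normalization, as a percentile within each array averaged over the 12 arrays. Brightness also depends on the clone and its print, so it is not a molar level. As control signal is the denominator of the ratios that chose the members, and a fall can be measured only from a signal above background, these values are a description. The median percentile was 74.8, and members ran from 38.7 to 98.8. Of the 95, 91 lay above 50 and 7 above 90. On the log2 intensity scale the median was 11.46, against 9.13 for all spots.

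The brightest were spot 1580 (log2 intensity 14.74), spot 2487 (14.66) and LOC547819 (14.53), and the dimmest were spots 5336 (8.88), 4097 (9.02) and 5553 (9.20). Spot 5336 had means of -0.79 under TUN, -0.78 under AZC and -0.80 under PEG, and its 12 values ran from -0.16 to -1.50. Spot 4097 had means of -0.70, -0.66 and -0.61, and spot 5553 of -1.18, -0.69 and -0.84. Near the top of the 16-bit scanner scale, 2 members (spots 1580 and 4618) reached 60000 or more in a control channel, both on PEG replicate 1 where Cy5 marked the treated RNA.

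Brighter members had lower ratios, except in TUN replicate 1. Ordered by control intensity, the 32 dimmest clones had medians of -1.08 under TUN, -1.02 under AZC and -0.92 under PEG. In the 31 clones of middle brightness the medians were -1.39, -1.85 and -1.62, and in the 32 brightest they were -2.07, -3.10 and -2.38. The leading treatment changed with brightness: TUN led in 15 of the dimmest clones, in 2 of the middle ones (spots 2947 and 4642) and in 0 of the brightest, while AZC led in 9, 20 and 21 and PEG in 8, 9 and 11.

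The relation with brightness was present in TUN replicate 2 and not in TUN replicate 1. From the dimmest over the middle to the brightest clones, the medians of TUN replicate 1 were -1.27, -1.37 and -1.40, and those of replicate 2 were -0.74, -1.30 and -2.49. When brightness was taken from the control channels of the 8 AZC and PEG hybridizations, which share no hybridization with the TUN ratios, Pearson's r across the 95 members was -0.02 for TUN replicate 1 and -0.72 for replicate 2. For AZC it was -0.61 and -0.71 in the 2 replicates and for PEG -0.64 and -0.61, where the other hybridizations may share water plants. Members lower in TUN replicate 2 than in replicate 1 had a median control intensity of 12.2 on the log2 scale, and the others 10.2. On TUN replicate 1 the highest control foreground of a member was 41087, below 60000. Why the 2 TUN replicates differed in their relation with brightness was not tested.

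**Figure D5:**
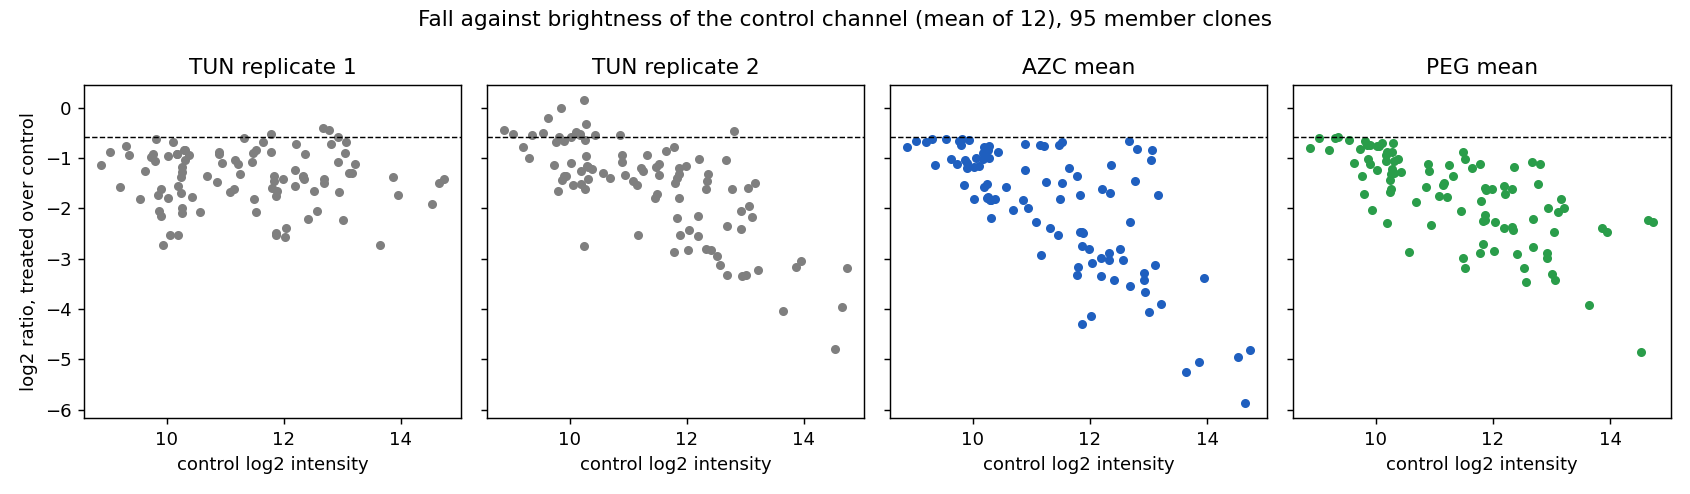
Log2 ratio of treated over control (y axis) against the mean log2 intensity of the control channel over 12 hybridizations (x axis) for the 95 members, in TUN replicate 1, TUN replicate 2, AZC and PEG, with the limit of -0.585 dashed. The points of TUN replicate 1 show no slope, and those of the other 3 panels fall with brightness.

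The members lay in all 4 blocks of the array, each of 1440 spots, with 15, 35, 21 and 24 members. 2 pairs were printed side by side: HDL56 with spot 2818, and spot 5219 with spot 5220. Spot 2818 had means of -2.09 under TUN, -2.49 under AZC and -1.64 under PEG, and spot 5220 of -1.65, -2.47 and -2.25.

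Nearest to the limit on the inside were spots 4125, 1746 and 1856, whose shallowest means were -0.591, -0.593 and -0.602, and on the outside spots 1666, 5456 and 2445, with -0.581, -0.575 and -0.564. Spot 1666 had means of -0.59, -0.58 and -0.61 under TUN, AZC and PEG.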

How the data were processed

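Leaf RNA of treated and control plants was compared on 2-colour cDNA arrays, 12 hybridizations grouped by the labels. The members, lists and tests were chosen with earlier results of these data known. The authors scanned the arrays, subtracted background and normalized by LOWESS (QuantArray and GeneSpring, per the methods; the file headers name ScanArray Express), and deposited log2 ratios in 1 table, whose direction and scale were found from the scanner values. Scanner files as deposited hold foreground and background intensity in arbitrary units, with a software mark per spot of unstated meaning. The authors' 12 columns gave the rule and all descriptive values. For tests, intensities were corrected by normexp (offset 50) and global loess in limma 3.58.1 (R 4.3.3), spots marked 1 or 4 were left out, dye-swap pairs were averaged within a replicate where neither orientation was missing, and a spot was kept when foreground exceeded background plus 2 SD on 3 of 4 hybridizations of at least 1 of 6 RNA groups. The need for both orientations, and the exchange of the PEG replicate 1 files, were decided on after inspecting the data. Image quantification spanned 4 days; once the exchange is made, every Cy3-treated array falls on a single day, so day and dye cannot be told apart. Treatment coefficients and their differences were fitted with lmFit and eBayes (trend) and Benjamini-Hochberg adjustment at 0.05 over all spots tested. With 2 biological replicates per treatment, precision is limited by their number. Named clones were the 6 lowest, the 3 extremes of each difference, of control brightness and of replicate difference, the 3 nearest the limit on each side, and every member with a gene symbol. The alternatives tried are in the closing section. No sequence of a clone was used here.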

Additional observations from a re-analysis of the deposited data

Results flagged for a closer look

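In GS-2 (spot 131) under AZC, replicate 2 with the treated RNA in Cy5 gave -1.72, whereas the other 3 values lay between -0.99 and -0.90. Among the 89 groups of 4 values screened, this group was the only 1 whose extreme stood apart by Dixon's criterion. Chance alone marks about 1 in 20 such groups. The screen did not take in every member under every treatment, so other members may hold such values.

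The size of the fall differed between treatments by limma (adjusted p under 0.05 over all spots) in 20 of 83 members tested for AZC against TUN, beside 2.08% of all spots, in 27 of 84 for PEG against AZC, beside 5.96%, and in 9 of 75 for PEG against TUN, beside 5.61%. None of these calls held with the files of PEG replicate 1 as listed. In that setting the ratios of these files ran against their own columns of the authors' table (r of -0.50 and -0.48). As the members were chosen for large ratios on the same hybridizations, the share of all spots is not a baseline free of the rule.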

How the results depend on the processing

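The number of clones at the limit ranged from 65 (all 4 values present in every treatment) to 120 (ratios from the scanner intensities), against 95, and from 71 to 100 when 1 biological replicate of 1 treatment was left out. Members called in AZC minus TUN (20) were 4 with plain background subtraction, 8 with no background correction, 13 with print-tip loess, 0 with the files of PEG replicate 1 as listed and 5 without the PEG hybridization of another quantitation, and 3 to 42 with 1 replicate left out. Members called in PEG minus AZC (27) were 17, 15, 22, 0 and 9 under the same settings, and 7 to 18 with 1 replicate left out. Members called in PEG minus TUN (9) were 6, 8, 6, 0 and 7, and 1 to 30. With all 12 hybridizations and a dye term the 3 counts were 17, 20 and 9. Under the replicate block, with the replicate number as a term, the counts were 26, 32 and 11. The labels do not say whether same-numbered replicates of different treatments shared more than the number (correlations of deviations 0.14, -0.06 and -0.07). For the contrasts that chose the members, where the calls are a description only, the methods' t-test, once adjusted by Benjamini-Hochberg, called 0, 51 and 1 members lower under TUN, AZC and PEG, against 77, 88 and 80 by limma and 74, 92 and 77 by the t-test before adjustment. With 1 replicate left out the counts were 63 to 78, 64 to 74 and 52 to 73. The share of members lowest under AZC (52.6%) was 64.2% on ratios from the scanner intensities, 40.0% without replicate 1 and 64.2% without replicate 2 of every treatment, and 50.5% to 54.7% without 1 TUN replicate. That of PEG (29.5%) was 51.6% and 18.9% without replicate 1 and 2 of every treatment, and 26.3% to 33.7% without 1 TUN replicate. That of TUN (17.9%) was 10.5% on ratios from the scanner intensities, 8.42% and 16.8% without replicate 1 and 2 of every treatment, and 11.6% to 23.2% without 1 TUN replicate. The median control percentile (74.8) was 68.5 to 80.5 within single treatments. The cause of these shifts was not tested. Leaving out a single hybridization and each TUN replicate alone, for the shares, was chosen after seeing the data.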
